A study of Mus musculus with 32 samples.

Results

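Signals of 10 acute phase genes (Saa1, Saa2, Lbp, Orm1, Orm2, Hp, Lcn2, Apcs, Itih4 and Fgb) were followed in 4 organs of mice given the curaxin CBL0137, a DNA-binding small molecule that traps the histone chaperone FACT in chromatin. The genes were taken by symbol from the array's annotation, each through its brightest probe over all 32 arrays, and they are 10 of the 16593 genes with a named probe. Whole testis, spleen, liver and lung came from male NIH Swiss mice aged 7 weeks. A single injection into a vein carried 30, 60 or 90 mg of CBL0137 per kg of body weight or the vehicle alone (5% dextrose). Organs were taken 24 hours after the dose, and each of the 16 combinations of organ and dose was measured on 2 Illumina BeadChip arrays. No genotype or other agent is named, the labels do not assign organs to the FACT-positive and FACT-negative kinds that the study set out to compare, and nothing shows that paired arrays were different animals, so the tests cover array-to-array spread, which may be technical. The values are the authors' normalized intensities, called signal here, and precision is limited by the number of arrays.

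Acute phase genes encode plasma proteins whose hepatic synthesis changes during infection, injury or other stress. In hepatocytes, interleukin-6 and related cytokines act through STAT3, interleukin-1 acts through NF-kB and C/EBP factors, and glucocorticoids strengthen both routes. The positive acute phase proteins rise in plasma and bind microbial products, haemoglobin, iron carriers or damaged cells, whereas negative ones such as albumin fall.

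The genes lie at separate loci apart from 2 neighbouring pairs, given here by the RefSeq annotation of GRCm38.p6. Saa1 (chr7:46740497-46743181) and Saa2 (chr7:46751833-46754313) encode serum amyloid A, an apolipoprotein of high-density lipoprotein. Orm1 (chr4:63344556-63348163) and Orm2 (chr4:63362449-63365877) encode orosomucoid, a plasma carrier of basic and lipophilic drugs. The members of each pair are near-identical copies, so a probe may also have caught RNA of the neighbour, and the probe sequences were not used here. Lbp (chr2:158306493-158332852) encodes lipopolysaccharide-binding protein, which hands bacterial lipopolysaccharide to CD14. Lcn2 (chr2:32384637-32387739) encodes lipocalin-2, which binds bacterial siderophores. Hp (chr8:109575128-109579172) encodes haptoglobin, which binds free haemoglobin, and Apcs (chr1:172893961-172895054) encodes serum amyloid P component, a pentraxin. Itih4 (chr14:30886476-30901986) encodes an inter-alpha-trypsin inhibitor heavy chain, and Fgb (chr3:83042246-83049863) encodes the beta chain of fibrinogen.

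RefSeq promoter sequence (GRCm38.p6) was at hand for 7 of the 10 genes, and 5 of these are printed because the results below turn on them or, for the Saa pair, because they show how alike the 2 genes are. Each line holds the 250 bases before the annotated start of transcription, 5′ to 3′ on the gene's strand, with matches to 5 motifs in capitals. Saa1 lies on the minus strand (chr7:46742981-46743230), where the start used belongs to a transcript that begins inside the longer gene span. Saa2 (chr7:46751583-46751832), Orm2 (chr4:63362199-63362448) and Itih4 (chr14:30886226-30886475) lie on the plus strand and Lcn2 (chr2:32387740-32387989) on the minus strand.
Saa1: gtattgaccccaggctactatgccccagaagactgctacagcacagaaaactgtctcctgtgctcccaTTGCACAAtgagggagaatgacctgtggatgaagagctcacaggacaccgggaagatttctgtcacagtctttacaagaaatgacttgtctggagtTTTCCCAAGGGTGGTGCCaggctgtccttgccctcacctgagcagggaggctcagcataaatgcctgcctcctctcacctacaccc
Saa2: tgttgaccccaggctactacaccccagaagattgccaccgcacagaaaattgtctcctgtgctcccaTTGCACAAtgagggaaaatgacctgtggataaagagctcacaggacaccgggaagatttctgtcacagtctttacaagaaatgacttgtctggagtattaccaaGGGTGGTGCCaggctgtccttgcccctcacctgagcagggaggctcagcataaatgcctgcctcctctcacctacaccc
Orm2: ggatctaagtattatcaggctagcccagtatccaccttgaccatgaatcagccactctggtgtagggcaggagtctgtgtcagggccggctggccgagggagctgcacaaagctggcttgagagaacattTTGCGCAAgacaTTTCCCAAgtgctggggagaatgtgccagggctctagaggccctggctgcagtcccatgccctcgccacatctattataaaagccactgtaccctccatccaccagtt
Lcn2: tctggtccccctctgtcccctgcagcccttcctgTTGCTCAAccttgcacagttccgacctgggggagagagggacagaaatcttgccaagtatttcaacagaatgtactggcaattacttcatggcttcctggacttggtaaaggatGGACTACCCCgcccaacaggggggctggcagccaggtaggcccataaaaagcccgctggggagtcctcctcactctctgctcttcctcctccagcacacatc
Itih4: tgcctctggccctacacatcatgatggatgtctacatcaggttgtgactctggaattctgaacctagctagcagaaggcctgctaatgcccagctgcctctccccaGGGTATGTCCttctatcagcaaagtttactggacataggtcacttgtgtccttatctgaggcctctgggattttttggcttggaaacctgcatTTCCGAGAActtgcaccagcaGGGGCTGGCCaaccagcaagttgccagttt

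Both strands were searched for the STAT3 palindrome TTCNNNGAA, the type 2 interleukin-6 response element CTGGGAA, a C/EBP motif TTNNGNAA, an NF-kB motif (GGG, any 5 bases, CC) and an HNF1 motif (GTTAAT, any base, ATT), and no match overlapped another. Saa1 and Saa2 were identical at 238 of 251 aligned positions (94.8%), against 48.0% to 52.2% between Saa1 and each of the other 5 sequences. Both held an NF-kB match, GGGTGGTGCC, and a C/EBP match, TTGCACAA. The second C/EBP match of Saa1, TTTCCCAA, directly before the NF-kB match, is not in Saa2. Orm2 held 2 C/EBP matches (TTGCGCAA and TTTCCCAA), Lcn2 a C/EBP match (TTGCTCAA) and an NF-kB match (GGACTACCCC on the printed strand), and Itih4 a STAT3 palindrome (TTCCGAGAA) and 2 NF-kB matches. Of the 2 sequences not printed, Apcs held a STAT3 palindrome and 2 type 2 elements, and Fgb a STAT3 palindrome, 1 type 2 element and 2 C/EBP matches. Among 27025 RefSeq promoters cut to the same length, 7.2% held the STAT3 palindrome, 9.1% the type 2 element, 36.9% the C/EBP motif, 45.4% the NF-kB motif and 0.4% the HNF1 motif. Matches are letters in a window, not measured binding.

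Across the arrays the organs carried the markers of their labels. Summed signal of 9 hepatocyte markers was 68021 to 87123 in liver, that of 7 lung epithelial markers 85882 to 100334 in lung, that of 9 spermatid markers 133175 to 141086 in testis, and that of 5 B and T cell markers 12728 to 17382 in spleen. Markers of other organs were present too. Hepatocyte markers summed to 573 to 16779 in lung, 249 to 1356 in spleen and 41 to 1022 in testis, and spermatid markers to 4745 to 6800 in vehicle lung against 37 to 1449 in treated lung. Spermatid markers reached 16811 and 32470 on the vehicle spleen arrays, against 551 to 8408 on the treated ones, so the vehicle arrays of lung and spleen stand apart. Adipocyte markers summed to 17 to 4590 in lung and to at most 1980 elsewhere. The 2 arrays of a group correlated at 0.958 to 0.993 over all probes.

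In vehicle mice, 9 of the 10 genes were highest in liver by mean signal, and Lcn2 was the exception. Orm1, Itih4 and Hp were at 9132 to 18157 on the vehicle liver arrays, Apcs at 2364 and 3020, and Orm2 at 785 and 1202. Lbp was at 714 and 760, Saa1 at 267 and 1262, Saa2 at 101 and 621, and Fgb at 176 and 157. These ranges describe each probe on its own scale and do not rank the genes, since probes differ in brightness.

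The plot of all 10 genes by organ and dose shows these levels. In a limma fit over all 32 arrays with Benjamini-Hochberg adjustment, 9 of the 10 were called higher in vehicle liver than in vehicle spleen, where 24.5% of all tested genes were, and 9 of 10 were higher than in testis (34.4% of all genes). Against vehicle lung, 8 of 10 were called higher (23.8% of all genes). The members were selected as hepatic plasma protein genes, so these counts describe the organ pattern of the set rather than test it. Saa2 (at least 31.6-fold over spleen), Saa1 (at least 73.5-fold over spleen) and Orm2 (at least 123.0-fold over spleen and over testis) had no array above background on the dim side. For such folds the dim group was set to the lowest detected signal of its arrays and the liver entered by its mean without an error.

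**Figure D1:**
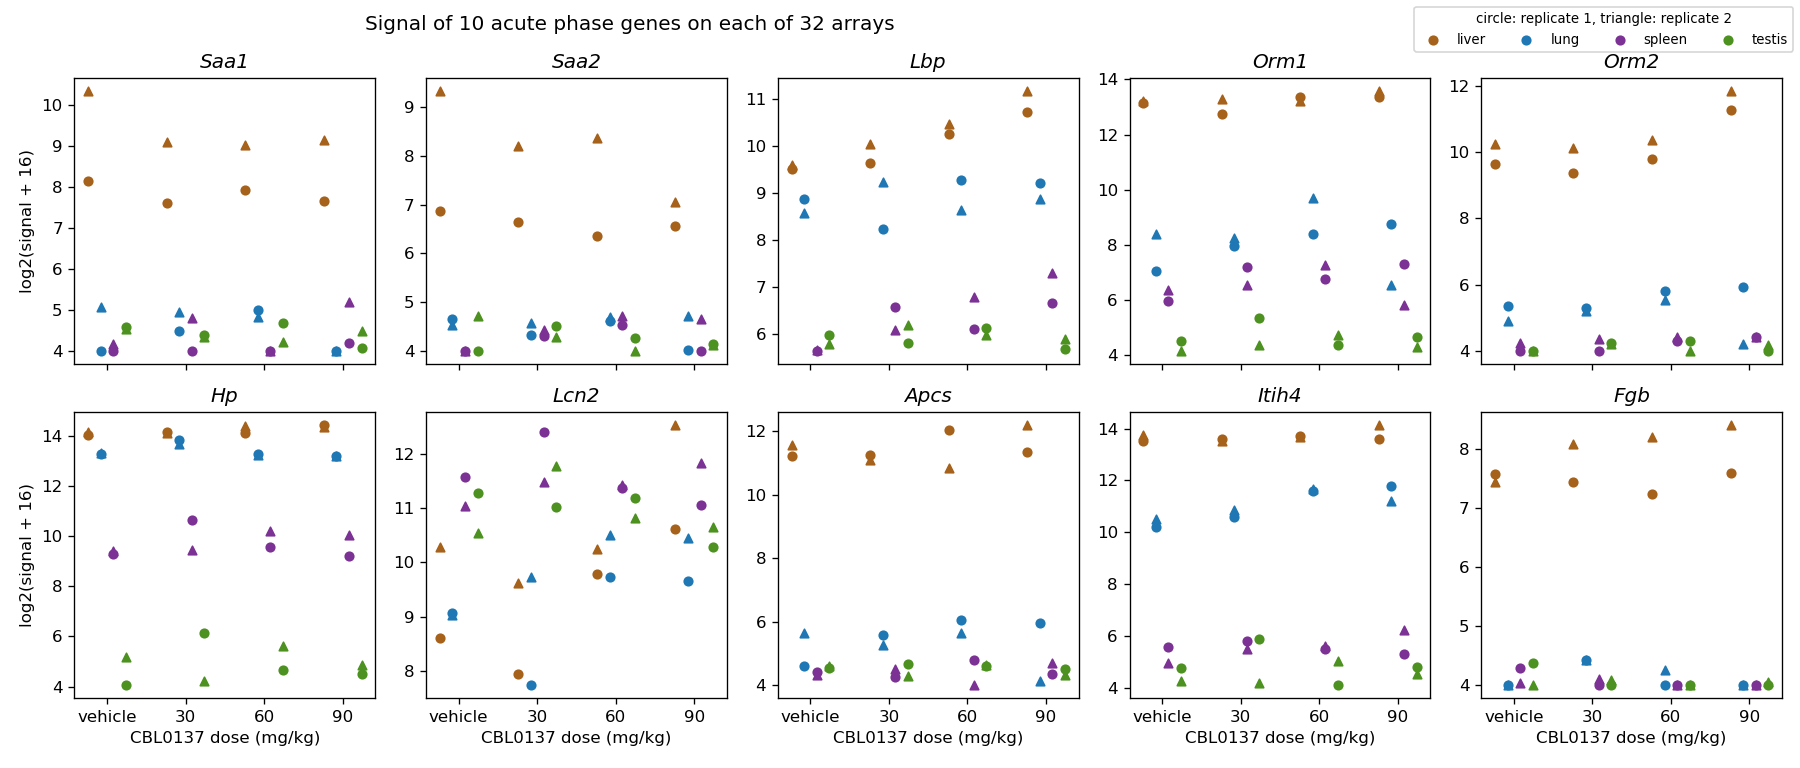
Log2(signal + 16) of each gene on every array, by dose, with organs in colour and replicates 1 and 2 as circles and triangles (2 arrays a group). Liver is the top organ for 9 genes, and Hp in lung lies close to liver on the brightest probe, the one shown. Lcn2 on the vehicle arrays is higher in spleen and testis than in liver.

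Fgb was detected on all 8 liver arrays and on none of the other 24, at least 21.1-fold under vehicle liver in each other organ. Apcs had at least 338.2-fold more signal in vehicle liver than in vehicle spleen, and Orm1 at least 1180.5-fold more than in testis. Among the 9 liver-led genes, lung came nearest to liver for Hp and Lbp. Hp in vehicle lung was 9912 and 10002 against 16684 and 18157 in liver, a log2 difference of 0.80 ± 0.47 (SE, limma, adjusted p = 0.156). Its 2 dimmer probes lay further apart. They read 10776.5 to 18157.4 and 9756.5 to 15661.8 over all liver arrays, against 4025.6 to 7885.0 and 3535.5 to 7143.5 in lung. The mean of all probes gave a vehicle difference of 1.18 (limma, adjusted p = 0.016). Lbp in vehicle lung was 458 and 366 against 714 and 760 in liver, a log2 difference of 0.82 ± 0.31 (limma, adjusted p = 0.0296). That call is lost without either liver vehicle array (adjusted p = 0.0719 and 0.107) or without lung vehicle replicate 2 (adjusted p = 0.166).

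Lcn2 ran the other way. Its signal was 3020 and 2084 in vehicle spleen, 2474 and 1475 in vehicle testis, 517 and 509 in vehicle lung, and 375 and 1238 in vehicle liver. Liver arrays were below spleen and testis arrays without overlap, and the lung arrays lay between the 2 liver values. Lcn2 was called lower in liver than in spleen, as were 33.3% of all genes. The liver minus spleen difference was -1.85 ± 0.66 on the log2 scale (limma, adjusted p = 0.0199), and it misses the threshold without liver vehicle replicate 1 (-1.01, adjusted p = 0.28) or spleen vehicle replicate 1 (-1.58, adjusted p = 0.115). Liver minus testis was -1.46 ± 0.66 (adjusted p = 0.0561, and called in 7 of 22 alternatives), and liver minus lung 0.41 ± 0.66 (adjusted p = 0.635). Lcn2 is also made by neutrophil precursors, and the summed signal of 11 neutrophil markers was 36626 to 69324 in spleen, 1594 to 15258 in lung and 173 to 513 in liver. In testis the same markers summed to 11 to 56, and Lcn2 was 1229 to 3490 there. The part of neutrophils in the Lcn2 signal of any organ was not tested.

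After treatment, 8 of the 10 genes had both their highest liver mean and their highest liver array at 90 mg/kg. The share of all genes with that pattern was not counted. The largest differences from vehicle were in Lcn2, Orm2 and Lbp, while Saa1 and Saa2 had their highest mean and array in the vehicle group. None of the 10 genes passed the adjusted threshold in liver at any dose. At an unadjusted p of 0.05 (limma), 0 of 10 passed at 30 mg/kg, 1 at 60 mg/kg (Lbp) and 3 at 90 mg/kg (Lbp, Orm2 and Lcn2), all higher, where 2.55%, 3.45% and 5.92% of the 11586 genes tested did so upward. Both 90 mg/kg arrays lay above both vehicle arrays for 6 of 10 genes (Lbp, Orm1, Orm2, Hp, Lcn2 and Fgb), against 20.4% of all genes, and below them for 0 of 10, against 20.6%. At 30 and at 60 mg/kg, Lbp alone was above vehicle in this way, against 18.6% and 18.8% of all genes. The median log2 change of the 10 was 0.34 at 90 mg/kg, with -0.01 over all genes, 0.11 at 60 mg/kg and -0.18 at 30 mg/kg. No gene of the whole array was called at 30, 60 or 90 mg/kg against vehicle in liver (limma). The unadjusted p was passed upward by 296, 400 and 686 genes.

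Lbp followed the dose in liver. Its signal was 714 and 760 with vehicle, 783 and 1049 at 30 mg/kg, 1221 and 1400 at 60 mg/kg, and 1679 and 2289 at 90 mg/kg. Neighbouring doses did not overlap, so every array stood above every array of a lower dose. The share of all genes with this order was not counted. Mean signal went from 737 ± 32.3 to 1984 ± 431 (SD, n = 2), a log2 difference of 1.39 ± 0.25 at 90 mg/kg, or 2.63-fold on the scale of signal plus 16 (limma, adjusted p = 0.131). The slope was 0.47 ± 0.07 log2 units per 30 mg/kg (limma, adjusted p = 0.0556). By slope 0 of 10 members were called, where 0.00863% of all genes were, and 3 passed the unadjusted p upward (Lbp, Orm2 and Lcn2), where 6.26% did. Both Lbp values pass the adjusted threshold in 1 fit over all 32 arrays (limma, adjusted p = 0.0141 and 0.00179). Over all alternatives, Lbp was called in just 2 of 15 at 90 mg/kg and in 3 of 15 by slope.

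**Figure D2:**
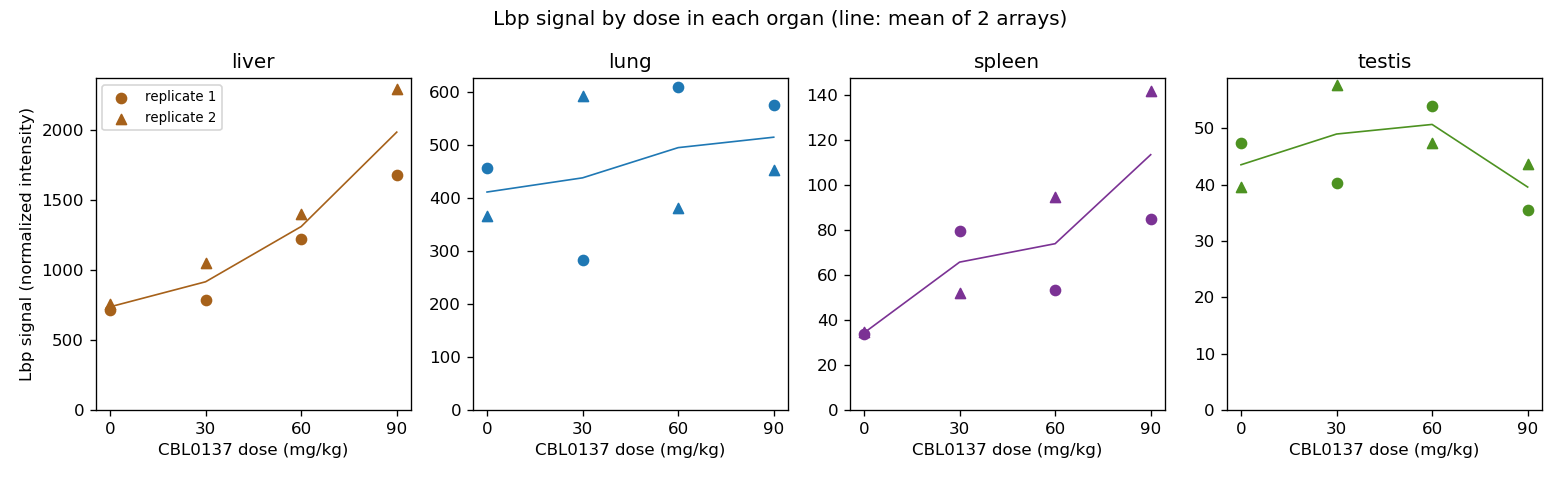
Lbp signal (normalized intensity) on each array against CBL0137 dose in the 4 organs, each panel with its own axis from 0, with a line through the mean of 2 arrays. Liver goes from 714 and 760 to 1679 and 2289 and spleen from 33.8 and 34.8 to 85.0 and 142.0, while the dose groups of lung and testis overlap.

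Orm2 was set apart by the top dose alone. The liver arrays read 785 and 1202 with vehicle, 640 and 1104 at 30 mg/kg, 877 and 1304 at 60 mg/kg, and 2441 and 3630 at 90 mg/kg. The 90 mg/kg arrays were above all 6 others, which overlapped among themselves. The difference at 90 mg/kg was 1.60 ± 0.37 on the log2 scale, 3.03-fold (limma, adjusted p = 0.214), while 60 mg/kg differed from vehicle by 0.14 ± 0.37 (adjusted p = 0.984).

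Its neighbour Orm1, which is far brighter on its own probe, read 9132 and 9524 with vehicle, 6913 and 10057 at 30 mg/kg, 10468 and 9407 at 60 mg/kg, and 10645 and 12118 at 90 mg/kg. The 90 mg/kg arrays were above both vehicle arrays, by 0.28 ± 0.24 on the log2 scale (limma, adjusted p = 0.704).

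Lcn2 in liver read 375 and 1238 with vehicle, 230 and 768 at 30 mg/kg, 861 and 1195 at 60 mg/kg, and 1554 and 5881 at 90 mg/kg. The 2 arrays of the top dose were both above vehicle but differed from each other more than any other pair. The difference was 2.12 ± 0.80 on the log2 scale, 4.34-fold (limma, adjusted p = 0.376). It rests on single arrays: without 90 mg/kg replicate 2 the Lcn2 value is 1.16 and without 90 mg/kg replicate 1 it is 3.07. Summed neutrophil markers were 204 and 513 on those 2 arrays, against 502 and 455 with vehicle.

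Saa1 and Saa2, known for a steep plasma response to inflammation in mice, were split by replicate rather than by dose. Saa1 read 267 and 1262 with vehicle, 179 and 529 at 30 mg/kg, 225 and 501 at 60 mg/kg, and 184 and 552 at 90 mg/kg. Saa2 read 101 and 621 with vehicle, 84.0 and 277 at 30 mg/kg, 66.2 and 312 at 60 mg/kg, and 79.0 and 117 at 90 mg/kg. In both genes the second array was the higher in every group. The second arrays of the treated groups lay within the vehicle range and the first arrays below it. The 90 mg/kg difference was -0.84 ± 0.83 for Saa1 and -1.28 ± 0.91 for Saa2 on the log2 scale (limma, adjusted p = 0.749 and 0.654). Without vehicle replicate 2 the Saa1 value becomes 0.25 and the Saa2 value -0.05, and without vehicle replicate 1 they become -1.92 and -2.51.

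The same order of arrays ran through other members. In liver, replicate 2 was above replicate 1 in all 4 dose groups for 5 of the 10 genes (Saa1, Saa2, Lbp, Orm2 and Lcn2), where 6.90% of all tested genes showed this order, and replicate 1 was never the higher in all 4 for any member. In lung, spleen and testis, 0 of the 9, 8 and 7 members tested had replicate 2 higher in all 4 groups, against 5.82%, 5.38% and 7.45% of all genes. Replicate 1 was the higher in all 4 groups for 1 of 9 in lung (Orm2), 0 of 8 in spleen and 0 of 7 in testis. Over all genes that order held for 903 of 11586 in liver, 797 of 11372 in lung, 460 of 11101 in spleen and 756 of 10821 in testis. The labels do not say what the replicate numbers stand for, and the part of a shared day or batch in this order was not tested.

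The remaining liver genes moved little. Hp was 16684 and 18157 with vehicle and 21696 and 20987 at 90 mg/kg, a log2 difference of 0.29 ± 0.20 (limma, adjusted p = 0.641), close to the highest value on any array (24070), where signal can be compressed. Its 2 dimmer probes gave 0.22 and -0.04, so the 3 probes of the gene did not share a direction. Itih4 was 11778 and 13858 with vehicle and 12519 and 17846 at 90 mg/kg (0.23 ± 0.23, adjusted p = 0.763), with 0.31 and 0.28 from its other 2 probes. Apcs was 2364 and 3020 with vehicle and 2616 and 4669 at 90 mg/kg (0.39 ± 0.42, adjusted p = 0.775). Fgb was 176 and 157 with vehicle and 178 and 323 at 90 mg/kg (0.49 ± 0.40, adjusted p = 0.70). For Itih4 and Apcs the dose groups overlapped with vehicle. Summed hepatocyte markers were 68021 and 77259 at 90 mg/kg against 83148 and 84406 with vehicle, and their part in these values was not tested. In whole organs, a change in the share of a cell type and a change in RNA per cell cannot be told apart.

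**Figure D3:**
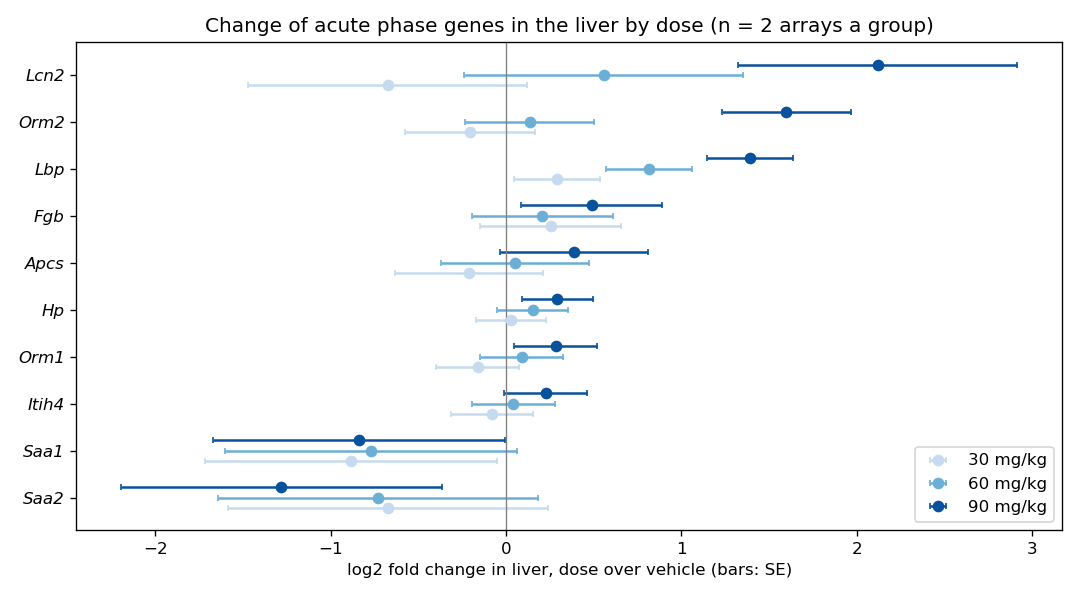
Log2 fold change of each gene in liver at 30, 60 and 90 mg/kg over vehicle, with SE from limma (2 arrays a group). At 90 mg/kg Lcn2, Orm2 and Lbp lie at 2.12, 1.60 and 1.39, the next 5 genes between 0.23 and 0.49, and Saa1 and Saa2 at -0.84 and -1.28.

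Other genes of the response were read from 5 lists. Of 24 other positive acute phase genes tested in liver at 90 mg/kg, 0 passed the adjusted threshold, 8 passed an unadjusted p of 0.05 upward and 1 downward, where 5.92% and 5.22% of all genes did (11.1% in either direction), and the median log2 change was 0.42. Mbl2, a mannose-binding lectin of complement, was 1.30 ± 0.21 above vehicle (limma, adjusted p = 0.131), and Saa4, the constitutive serum amyloid A, 1.08 ± 0.26 (adjusted p = 0.223). Of 18 genes of signalling and transcription, 5 passed an unadjusted p upward and 0 downward, against the same shares, with a median of 0.25. Nfkbiz, an inducible NF-kB cofactor, was 1.18 ± 0.20 above vehicle (adjusted p = 0.131), and Fkbp5, a glucocorticoid receptor target, 1.68 ± 0.33 (adjusted p = 0.17).

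By median, the negative acute phase and the clearance lists lay near all genes, while the cytokine and receptor list lay close to the signalling list. The 11 negative acute phase genes had a median of -0.04, with Rbp4, the retinol carrier, at 0.84 ± 0.28 (limma, adjusted p = 0.326) and Apoa2, an apolipoprotein, at -0.24 ± 0.22 (adjusted p = 0.724). The 14 cytokines and receptors had a median of 0.21, with the oncostatin M receptor gene Osmr at 0.88 ± 0.23 (adjusted p = 0.254) and the interleukin-1 receptor gene Il1r1 at 0.77 ± 0.35 (adjusted p = 0.468). The 18 binding partners and clearance genes had a median of -0.03, with the lipoprotein receptor gene Scarb1 at 0.78 ± 0.27 (adjusted p = 0.339) and the Fc receptor gene Fcgr3 at -0.61 ± 0.22 (adjusted p = 0.368). No gene of these 5 lists was called in liver by dose trend either. At an unadjusted p, 9 of 24, 6 of 18, 1 of 11, 3 of 14 and 3 of 18 genes passed in the order given, where 12.1% of all genes did in either direction.

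In spleen, Lbp was the one member called by dose. Of the 10 genes, 8 were detected often enough to be tested, and Orm2 and Fgb were above background on no array. Lbp signal was 33.8 and 34.8 with vehicle, 79.5 and 52.0 at 30 mg/kg, 53.3 and 94.6 at 60 mg/kg, and 85.0 and 142.0 at 90 mg/kg. All 6 treated arrays were above both vehicle arrays, with overlap between the doses. Of the 8 members, 4, 4 and 2 had both arrays above vehicle at 30, 60 and 90 mg/kg, against 26.8%, 33.0% and 32.2% of all genes. Lbp rose by 0.41 ± 0.09 log2 units per 30 mg/kg (limma, adjusted p = 0.0436), 1 of 8 members where 3.44% of the 11101 genes tested were called upward. At 90 mg/kg the difference was 1.33 ± 0.31, 2.51-fold (adjusted p = 0.0525). By single doses 0 of 8 members were called, where 0.153%, 0.748% and 2.09% of all genes were called upward at 30, 60 and 90 mg/kg. At an unadjusted p, 0, 2 (Lbp and Saa2) and 1 (Lbp) passed upward, against 5.29%, 10.3% and 13.5% of all genes, and 1 by slope, against 15.2%.

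The spleen call of Lbp sits at the edge of the threshold. It is lost without any of 6 of the 8 arrays in turn (both vehicle arrays, replicate 2 at 30 and 60 mg/kg, and both arrays at 90 mg/kg), with adjusted p from 0.0565 to 0.188. It is also lost with no detection filter (adjusted p = 0.0794), and with the replicate number as a block (adjusted p = 0.0589). The slope stayed above 0 in each of these fits. Hepatocyte markers in spleen summed to 320 and 400 with vehicle and 330 and 249 at 90 mg/kg. Spermatid markers were highest on the 2 vehicle arrays, macrophage markers summed to 719 and 842 with vehicle and 1482 and 1460 at 90 mg/kg, and the part of either in the Lbp slope was not tested. Cyclic loess moved the median of all genes in spleen at 90 mg/kg by -0.11 on the log2 scale, and the split of called genes went from 232 higher and 242 lower to 160 and 362. By slope it went from 382 higher and 185 lower to 222 and 248, with Lbp at 0.35 per 30 mg/kg (adjusted p = 0.0606).

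Hp in spleen was 613 and 653 with vehicle, 1570 and 680 at 30 mg/kg, 737 and 1162 at 60 mg/kg, and 568 and 1031 at 90 mg/kg. Orm1 was 45.3 and 65.5, 129 and 75.9, 91.0 and 138, and 140 and 39.2 in the same order. Both genes were above vehicle on all arrays at 30 and 60 mg/kg, while the 90 mg/kg arrays enclosed the vehicle values. Neither passed an unadjusted p at any dose (limma, Hp 0.70 ± 0.43 at 30 mg/kg, adjusted p = 0.606). Hepatocyte markers were also above vehicle (320 and 400) on the arrays at 30 mg/kg (1051 and 449) and 60 mg/kg (700 and 1356). At 90 mg/kg they summed to 330 and 249, and the highest Orm1 (140) was on the first of these arrays. The highest Hp (1570) was on 30 mg/kg replicate 1, which had the highest neutrophil sum (69324). The part of either kind of marker in the Hp and Orm1 signal was not tested.

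Lcn2 in spleen was 3020 and 2084 with vehicle, 5381 and 2849 at 30 mg/kg, 2632 and 2718 at 60 mg/kg, and 2122 and 3616 at 90 mg/kg. The groups overlapped, and the slope was -0.01 ± 0.13 per 30 mg/kg (limma, adjusted p = 0.966). The array with the highest Lcn2, 30 mg/kg replicate 1, also had the highest sum of neutrophil markers, 69324 against 36626 to 46108 on the other 7, and their part in its Lcn2 signal was not tested. Itih4 in spleen was above the detection limit on all 8 arrays, from 14.9 to 59.8, and its 90 mg/kg arrays enclosed the vehicle value of 31.8 (0.52 ± 0.33, limma, adjusted p = 0.386). Saa1, Saa2 and Apcs each passed the detection limit on 2 of 8 spleen arrays, so their changes rest on signal at background.

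In spleen, where 474 genes were called over the whole array at 90 mg/kg, some genes of the other lists were called as well. At 90 mg/kg 3 of 19 other positive acute phase genes were called upward (2.09% of all genes) and 5 of 19 by dose trend (3.44% of all genes), and their median log2 change at 90 mg/kg was 0.87, with 0.08 over all genes. Itih3, an inter-alpha-trypsin inhibitor heavy chain, rose by 1.48 ± 0.30 at 90 mg/kg (limma, adjusted p = 0.0426), Il1rn, the interleukin-1 receptor antagonist, by 1.09 ± 0.22 (adjusted p = 0.0442), and Cfb, complement factor B, by 1.18 ± 0.25 (adjusted p = 0.0476). The trend was also called for Cp, the ferroxidase ceruloplasmin, at 0.38 ± 0.08 per 30 mg/kg (adjusted p = 0.0396), Serpina3n, a protease inhibitor, at 0.49 ± 0.11 (adjusted p = 0.0419), and Serpina1b, an alpha-1-antitrypsin gene of a near-identical family, at 0.39 ± 0.09 (adjusted p = 0.044). Itih3 and Il1rn completed the 5.

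Fkbp5 rose by 1.89 ± 0.34 in spleen at 90 mg/kg (limma, adjusted p = 0.0361). Of 19 signalling and transcription genes it was the 1 called at that dose, where 2.09% of all genes were called upward. Among 15 binding and clearance genes, Fcgr1, the high-affinity IgG receptor, rose by 2.29 ± 0.29 (adjusted p = 0.0182), and Hmox1, haem oxygenase, by 0.66 ± 0.14 per 30 mg/kg (adjusted p = 0.0363). Osmr rose by 0.35 ± 0.08 per 30 mg/kg (adjusted p = 0.0452). It was 1 of 15 cytokines and receptors, where 3.44% of all genes were called upward by dose trend. None of 8 negative acute phase genes was called in spleen. At an unadjusted p, 0 passed at 90 mg/kg and 1 by trend, where 13.5% and 15.2% of all genes passed upward. These shares are for the upward direction alone, and the list was not set against a downward share. Adgre1, a macrophage marker, rose by 1.17 ± 0.24 at 90 mg/kg (adjusted p = 0.0424), and the spermatid marker Acrv1 fell by 2.77 on the log2 scale (SE 0.56, adjusted p = 0.0419).

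In lung, Itih4 stood out from the other members. It read 1152 and 1455 with vehicle, 1511 and 1836 at 30 mg/kg, 3087 and 3240 at 60 mg/kg, and 3558 and 2339 at 90 mg/kg. Every treated array was above both vehicle arrays, and the 60 and 90 mg/kg arrays were above those of 30 mg/kg. How many of all genes showed this order in lung was not counted. The log2 difference was 1.28 ± 0.25 at 60 mg/kg, 2.42-fold (limma, adjusted p = 0.202), and 1.15 ± 0.25 at 90 mg/kg (adjusted p = 0.142). The 2 dimmer probes of Itih4 gave 1.18 and 1.79 at 60 mg/kg and 1.22 and 1.14 at 90 mg/kg.

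Of 9 members tested in lung, 0 passed the adjusted threshold at any dose or by slope (0.0264% of 11372 genes were called upward by slope). At an unadjusted p, 1 passed upward at each dose and by slope, where 2.06%, 3.17%, 4.54% and 4.90% of all genes did. This was Hp at 30 mg/kg and Itih4 otherwise. Both arrays lay above vehicle for 2, 3 and 2 of the 9 at 30, 60 and 90 mg/kg, against 20.4%, 15.8% and 20.8% of all genes, and below it for 1 of 9 (Hp) at 60 and at 90 mg/kg, against 23.9% and 24.0%. Hp in lung was 9912 and 10002 with vehicle, 14337 and 13093 at 30 mg/kg, 9844 and 9663 at 60 mg/kg, and 9407 and 9185 at 90 mg/kg. The 30 mg/kg arrays were the highest and did not overlap with the rest (0.46 ± 0.17, limma, adjusted p = 0.759), with 0.35 and 0.41 from its other 2 probes.

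Lcn2 in lung was 517 and 509 with vehicle, 197 and 837 at 30 mg/kg, 829 and 1429 at 60 mg/kg, and 787 and 1379 at 90 mg/kg. The arrays of the 2 higher doses were above vehicle, and those of 30 mg/kg fell on either side (1.00 ± 0.60 at 90 mg/kg, limma, adjusted p = 0.605). Neutrophil markers summed to 5137 and 1616 with vehicle and 1594 and 4296 at 30 mg/kg. At 60 mg/kg they summed to 5772 and 3314, and at 90 mg/kg to 7626 and 15258. The highest Lcn2 (1429) was on 60 mg/kg replicate 2, with a neutrophil sum of 3314 and the highest adipocyte sum in lung (4590). The part of either kind of marker in the Lcn2 signal was not tested. Lbp in lung was 458 and 366 with vehicle and 577 and 454 at 90 mg/kg, and its dose groups overlapped (0.31 ± 0.37, adjusted p = 0.818).

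Orm1, Orm2 and Apcs in lung were read beside the hepatocyte markers of the same arrays, as in the plot of lung signal against hepatocyte markers. Lung 90 mg/kg replicate 2, with a hepatocyte sum of 573, had the lowest Orm1 (76.2), Orm2 (2.6) and Apcs (1.4). The highest Orm1 (807) was on 60 mg/kg replicate 2, with the highest hepatocyte sum (16779). That array also had the highest adipocyte sum in lung, 4590 against 17 to 858 on the others. Vehicle replicate 1, with a hepatocyte sum of 1980, had the second lowest Orm1 (116) and Apcs (8.2). The order did not hold throughout: Orm2 on that array (25.2) was above vehicle replicate 2 (14.0, with a sum of 11329) and both 30 mg/kg arrays (23.8 and 21.4). The highest Apcs (50.6) and the second highest Orm2 (40.3) were on 60 mg/kg replicate 1, with a sum of 7684. These values were read side by side over 8 arrays with no test, and the part of liver RNA or of adipocytes in them was not tested. Itih4 on lung 90 mg/kg replicate 2 was 2339, above both vehicle arrays, on the array where hepatocyte markers were lowest.

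**Figure D4:**
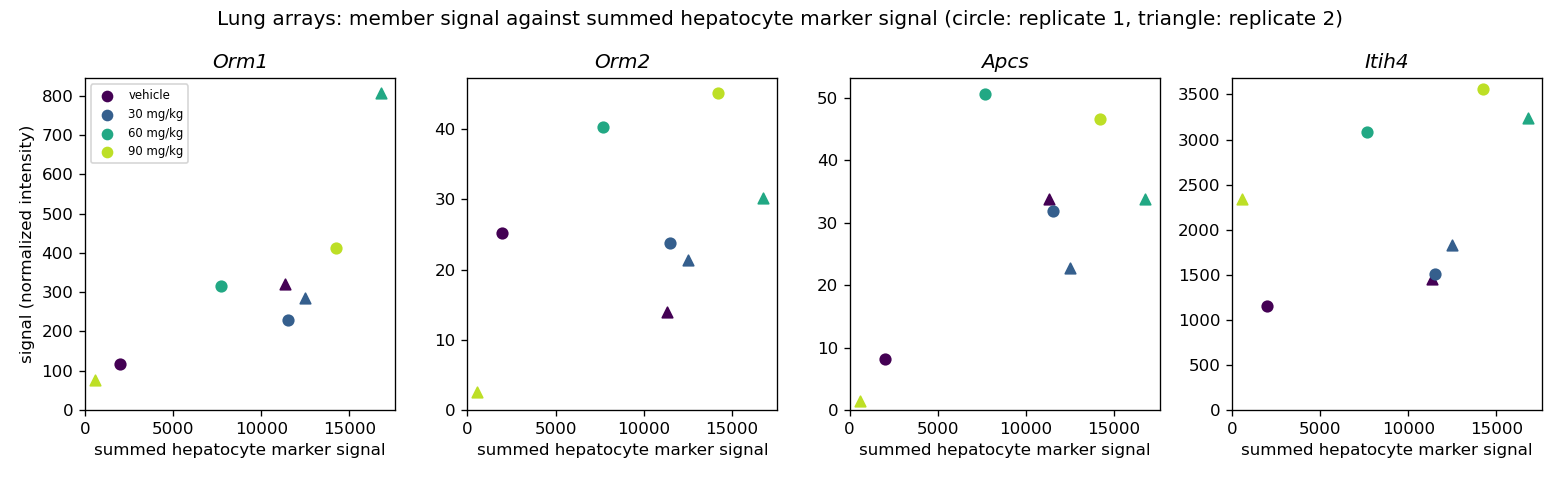
Signal of Orm1, Orm2, Apcs and Itih4 on the 8 lung arrays (normalized intensity) against the summed signal of 9 hepatocyte markers on the same array, coloured by dose. The array with the lowest hepatocyte sum (573) has the lowest Orm1, Orm2 and Apcs, while its Itih4 (2339) exceeds both vehicle arrays.

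Saa1 and Saa2 in lung ranged from -10.3 to 17.4 and from 0.3 to 10.5, with 4 and 5 of 8 arrays above the detection limit, and Fgb was detected on none. The other lists held 0 calls in lung at 90 mg/kg (limma). At an unadjusted p of 0.05, 1 of 23 other positive acute phase genes passed, 0 of 11 negative, 2 of 10 cytokines and receptors, 3 of 17 signalling and transcription genes and 1 of 19 binding and clearance genes, where 11.5% of all genes passed in either direction.

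In testis, Lcn2 and Lbp were the members well above background. The 7 members tested gave 0 calls and 0 genes at an unadjusted p of 0.05 at every dose and by trend (limma). Of 10821 genes, 0.00924% were called at 90 mg/kg, and 4.50%, 9.03%, 7.56% and 9.87% passed the unadjusted p at 30, 60 and 90 mg/kg and by trend. Lcn2 read 2474 and 1475 with vehicle, 2063 and 3490 at 30 mg/kg, 2328 and 1796 at 60 mg/kg, and 1229 and 1602 at 90 mg/kg. Its groups overlapped (-0.44 ± 0.31 at 90 mg/kg, adjusted p = 0.708). Lbp ranged from 35.4 to 57.7 over the 8 arrays with no separation of the doses (-0.10 ± 0.18 at 90 mg/kg, adjusted p = 0.881).

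The other members were at or near background in testis. Orm2 and Fgb were detected on no array, Saa2 on 1, Saa1 on 2, Orm1 on 3, Itih4 and Apcs on 4, and Hp on 5 of 8. The highest Hp (55.2), Orm1 (24.5) and Itih4 (43.2) were all on 30 mg/kg replicate 1, which also had the highest sums of hepatocyte markers (1022) and lung epithelial markers (1034) in that organ. Without that array the Itih4 value at 30 mg/kg is -0.32 in place of 0.53. Of the other lists, 0 genes were called in testis at 90 mg/kg, and 0 of 13 other positive acute phase genes passed an unadjusted p.

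Whether the 90 mg/kg response of a member differed between liver and another organ was tested directly, and 0 of 10 passed the adjusted threshold against lung, spleen or testis (limma over all 32 arrays), where 0.551%, 5.74% and 0.362% of all genes did. At an unadjusted p, 2, 2 and 3 of 10 differed in these contrasts, all with the larger value in liver, where 7.47%, 10.5% and 6.28% of all tested genes did so upward. Orm2 was above in each: by 1.66 ± 0.52 against lung (adjusted p = 0.147), 1.29 ± 0.52 against spleen (adjusted p = 0.153) and 1.5 ± 0.52 against testis (adjusted p = 0.235), where Orm2 itself was undetected in the last 2. The Orm2 value against lung is 0.80 without lung 90 mg/kg replicate 2 and 2.52 without lung 90 mg/kg replicate 1 (adjusted p = 0.443 and 0.00939). Lbp exceeded its lung change by 1.08 ± 0.44 (adjusted p = 0.274) and its testis change by 1.49 ± 0.44 (adjusted p = 0.149). Against spleen the Lbp difference was 0.06 ± 0.44 (adjusted p = 0.96), so its change in spleen was not told apart from that in liver. Under the alternatives this difference ran from -0.27 to 0.42. Lcn2 exceeded its spleen change by 1.98 ± 0.93 (adjusted p = 0.228) and its testis change by 2.56 ± 0.93 (adjusted p = 0.259), or by 1.02 and 1.61 without liver 90 mg/kg replicate 2.

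The genes most like each member over the 16 group means were taken by Pearson correlation, which organ levels dominate. For Apcs these were Apon, Masp1 and Ugt3a1 (0.999, 0.998 and 0.998), and for Fgb they were Etnppl, Tnfrsf8 and Amy2a5 (0.998, 0.997 and 0.997). For Orm1 they were Serpina10, Cyp7b1 and Col18a1 (0.994, 0.993 and 0.993), and for Orm2 Ces1b, Serpind1 and Mbl2 (0.993, 0.993 and 0.992). For Itih4 they were Maob, Sdc1 and Krt18 (0.997, 0.994 and 0.993), for Hp Lurap1l, Cyb5r3 and Bmp1 (0.997, 0.995 and 0.993), and for Lbp Aldh6a1, Eppk1 and Snx7 (0.990, 0.984 and 0.984). The Saa genes gave Sdr42e1, Nr1i3 and Dpyd for Saa1 (0.993, 0.992 and 0.991) and Acsm5, Serpina12 and Ugt1a2 for Saa2 (0.989, 0.989 and 0.989). Lcn2 had no such close match, with Trappc8, Rad1 and Brix1 at 0.867, 0.858 and 0.855. Over the 8 liver arrays, the mean of the 10 members was followed most closely by Morn3, Nudcd2, Zfat, Mtnr1b and Lrrc75a (0.983, 0.924, 0.923, 0.916 and 0.904). They were picked as the highest among all other genes detected in liver, over just 8 arrays, and no test was run. Members were centred but not scaled for that mean, so those that varied most weighed most.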

How the data were processed

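RNA extracted with TRIzol was labelled as biotinylated cRNA with the Ambion MessageAmp kit and hybridised to Illumina BeadChips, per the labels' protocols. GenomeStudio is named in the submitters' processing notes, without a version. Of an array's deposited intensities, 22.0% to 22.5% lay below 0 and sorted values differed between arrays by at most 1.0 below the maximum, as after background subtraction and quantile normalization over all 32 arrays and 4 organs. Such scaling forces 1 distribution on organs that differ. Column names of the deposited non-normalized table fixed the sample of just 3 signal columns, which served as a check, and 61 columns (29 of signal, 32 of detection p-values) were left out.

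Of 25697 probes, 23978 had 1 gene symbol, 0 several and 1719 none, and 23962 were matched to RefSeq. The brightest probe stood for a gene. Intensities below 0 were set to 0, 16 was added, and log2 taken. The detection limit was 1.645 noise SDs, with noise taken per array from the values below 0 (7.82 to 7.91), and a gene was tested if above it on at least 2 of an organ's 8 arrays (in either organ for contrasts between organs). limma 3.58.1 in R 4.3.3 (lmFit, eBayes) was fitted per organ, with a separate slope per 30 mg/kg, and over all 32 arrays for contrasts between organs. Benjamini-Hochberg adjustment covered all genes tested, with calls at 0.05. The code was tested on simulated data. Alternatives were 50 in place of 16, a floor at the detection limit, no detection filter, cyclic loess, the mean of all probes, 1 fit over all arrays, a replicate block, and each array left out.

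The 10 genes, the 5 pathway lists, the 7 marker lists and the tests were chosen with earlier results of these data known. All members are named. Of the other lists, genes called in the organ at 90 mg/kg or by trend are named, at most 4 a list, otherwise the 2 with the smallest p in liver. Cfb and Serpina1b lie beyond these 4 and were named, after their values were seen, to complete a count. Marker lists without a call are given as sums. For likeness, 3 genes per member and 5 for the liver mean are named.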

Additional observations from a re-analysis of the deposited data

Results flagged for a closer look

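Hp at 60 mg/kg is listed because every array moved in opposite directions in 2 organs. Both spleen arrays (737 and 1162) were above both vehicle arrays (613 and 653), while both lung arrays (9844 and 9663) were below theirs (9912 and 10002). The spleen change exceeded the lung change by 0.57 on the log2 scale, and this difference was not tested. The lung change, -0.03 ± 0.17, was smaller than its SE.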

How the results depend on the processing

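Of 3360 member values recomputed under an alternative, 3311 kept their direction and side of the threshold (a change of sign within 1 SE of 0 in an uncalled value counted as kept), 16 lost a call, 24 gained one and 9 turned. In liver, the calls went from 0 of 10 at 90 mg/kg to 1 with an offset of 50 and 2 with 1 fit over all 32 arrays, and by slope from 0 to 1 with the offset of 50 or the mean of all probes and 3 with the 1 fit, whose spread is pooled over organs. Genes called on the whole array at 90 mg/kg went from 0 to 63 and 400 in these 2 fits. In spleen at 90 mg/kg, 1 member (Lbp) was called with the offset of 50 or the 1 fit. The spleen slope call of Lbp went from 1 to 0 under cyclic loess, with no detection filter and with the replicate block, and to 0 to 1 with each array left out. The contrasts of the 90 mg/kg response gave 1 call against each organ with an offset of 50, and 0 to 1 against lung (Orm2, without lung 90 mg/kg replicate 1) and 0 to 1 against spleen (Saa2, without liver vehicle replicate 1) with arrays left out. Genes called in spleen at 90 mg/kg fell from 474 to 38 with no filter and 22 to 228 with an array left out, and rose to 925 and 1596 with the offset of 50 and the 1 fit.

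The 9 that turned were all uncalled, and 8 rested on 1 array. With each array left out, Saa1 in liver ranged from -1.97 to 0.21 at 30 mg/kg and -1.92 to 0.25 at 90 mg/kg, and the Saa2 contrasts from -2.29 to 0.16 against lung and -2.28 to 0.17 against testis, the upper ends without liver vehicle replicate 2. Saa1 in lung ranged from -0.15 (without vehicle replicate 1) to 0.92 at 60 mg/kg and from -1.06 to 0 (without vehicle replicate 2) at 90 mg/kg, and its spleen slope went down to -0.018 without 90 mg/kg replicate 2. Itih4 in testis at 30 mg/kg ranged from -0.32 (without that dose's replicate 1) to 1.37. The Saa1 slope in testis was 0.0054 with a floor, at background. Of vehicle contrasts, Hp between liver and lung gained a call with the offset of 50 (adjusted p = 0.0397) or the mean of all probes (0.016), Lbp lost it with a floor (0.0503), and Lcn2 between liver and spleen lost it under cyclic loess (0.0644). Lcn2 between liver and testis gained a call under cyclic loess (0.0124), with the block below, and with any of 5 liver arrays left out (0.012 to 0.0438). The causes were not tested.

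The labels do not say what replicate numbers stand for, and arrays were not treated as pairs because not every pair reached a correlation of 0.1. Deviations of equal numbers correlated at -0.232 to 0.404 over 24 pairs of doses in 1 organ and -0.269 to 0.204 over 24 pairs of organs, so a shared factor in some groups is not excluded. With the replicate block the Lbp slope was 0.41 in spleen (adjusted p = 0.0589), and genes called in spleen at 90 mg/kg numbered 49. The replicate block thus removed the spleen slope call of Lbp, and it added a call for Lcn2 between vehicle liver and testis (adjusted p = 0.0326). It changed no other member call.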
